A study of Homo sapiens with 6 samples.

Results

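The zinc finger genes of chromosome 19 were described here across 6 ATAC-seq peak lists from U937, a human monocytic cell line. Members were the protein-coding genes of chromosome 19 whose symbol is ZNF followed by a number, with an optional letter. This gave 246 genes of the 1451 protein-coding genes on the chromosome (1205 others), and of 19974 on chromosomes 1-22 and X (RefSeq, GRCh38.p14). A gene was said to have a gene-end peak in a library where a peak lay within 1000 bp of either end of the gene. The rule that chose the members used names and positions only, and no measured value.

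ATAC-seq inserts sequencing adapters into open DNA, so a peak is a stretch where reads pile up above the local background. The control group was 3 U937 lines transduced with control plasmids. The other group was 3 independent clones, labelled ΔNSPs, from which the neutrophil serine protease genes CTSG, ELANE and PRTN3 had been depleted together. Cells of both groups had been selected with geneticin at 500 µg/ml, incubated with DNase at 200 units/ml for 30 min, washed and frozen in medium with 5% DMSO. A clone grows from a single cell, so the clones can differ from the control lines and from each other by more than the depleted genes. No batch is named in the labels; genotype and any batch running along with it cannot be told apart.

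Zinc finger proteins of this family bind DNA through runs of zinc fingers, and many carry a KRAB domain that recruits the corepressor TRIM28. TRIM28 brings the histone methyltransferase SETDB1 and HP1 proteins, and many of the family repress transposable elements by this route. The genes arose by repeated tandem duplication, and on chromosome 19 they lie in long clusters of related copies.

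Of the 246 zinc finger genes, 61, 77 and 18 (24.8%, 31.3% and 7.32%) had a gene-end peak in clones 1, 2 and 3. The shares of all protein-coding genes were 39.1%, 29.6% and 6.55%. In the control lines 0 members had one, beside 0.00501%, 0% and 0% of all protein-coding genes. A peak in 2 or more clones was found for 43 members (17.5%), beside 23.3% of all protein-coding genes. The largest cluster, at the end of the long arm, has 59 of the 246 members and held 18 of these 43. The promoters below are of 5 genes with a peak there in clones 1 and 2, and of 3 paralogs (duplicate copies) with no gene-end peak in any library. Each is the 250 bases before the transcript start in the RefSeq promoter table (GRCh38.p14), written 5′ to 3′ on the strand of the gene. ZNF549 (chr19:57527106-57527355, plus strand), ZNF773 (chr19:57499688-57499937, plus strand) and ZNF460 (chr19:57279732-57279981, plus strand) come from that cluster. Capitals mark CCGGAAG, the core letters bound by ETS factors, on either strand.
ZNF549: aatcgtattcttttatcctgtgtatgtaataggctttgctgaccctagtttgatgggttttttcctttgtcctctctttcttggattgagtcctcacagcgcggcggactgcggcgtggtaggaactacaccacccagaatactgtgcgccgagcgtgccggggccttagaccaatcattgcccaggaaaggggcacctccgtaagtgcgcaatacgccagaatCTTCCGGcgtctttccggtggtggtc
ZNF773: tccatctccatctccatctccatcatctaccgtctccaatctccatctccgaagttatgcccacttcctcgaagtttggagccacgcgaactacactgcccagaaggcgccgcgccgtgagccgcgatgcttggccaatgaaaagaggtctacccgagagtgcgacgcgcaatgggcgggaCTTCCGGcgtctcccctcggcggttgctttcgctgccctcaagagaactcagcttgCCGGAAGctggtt
ZNF460: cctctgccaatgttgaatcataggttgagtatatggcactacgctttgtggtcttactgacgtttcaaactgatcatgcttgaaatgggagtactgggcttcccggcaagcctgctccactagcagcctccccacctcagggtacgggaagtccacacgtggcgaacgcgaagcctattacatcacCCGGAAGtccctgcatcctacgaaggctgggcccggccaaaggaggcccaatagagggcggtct

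ZNF428 (chr19:43619630-43619879, minus strand) and ZNF527 (chr19:37370849-37371098, plus strand) lie in clusters further towards the centromere. They are shown for another set of letters, the core bound by NRF1 (GCGC and TGCGC with any base between them, on either strand), which stands here in capitals. Its first base is at position -48 from the transcript start in ZNF428 and -129 in ZNF527.
ZNF428: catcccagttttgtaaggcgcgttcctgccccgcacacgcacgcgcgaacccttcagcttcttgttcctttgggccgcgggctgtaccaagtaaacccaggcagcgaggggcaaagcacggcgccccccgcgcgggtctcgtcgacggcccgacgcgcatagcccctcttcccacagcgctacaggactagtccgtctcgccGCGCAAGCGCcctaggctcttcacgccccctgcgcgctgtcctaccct
ZNF527: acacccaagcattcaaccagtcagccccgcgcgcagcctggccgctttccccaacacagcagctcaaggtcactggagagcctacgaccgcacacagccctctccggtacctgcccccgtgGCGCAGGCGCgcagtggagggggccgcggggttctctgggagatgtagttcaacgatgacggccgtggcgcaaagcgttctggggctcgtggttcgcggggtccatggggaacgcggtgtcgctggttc

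ZNF91 (chr19:23395472-23395721), ZNF43 (chr19:21836183-21836432) and ZNF208 (chr19:22010944-22011193), all on the minus strand, come from the cluster next to the centromere. They are shown because they carry CCGGAAG (capitals) at nearly the same place, at positions -24, -24 and -19, and no clone had a peak over these bases or at the gene ends. In end-to-end alignments with gaps, ZNF91 matched ZNF208 at 88.4% of the 250 bases and ZNF43 at 82.8%, and ZNF43 matched ZNF208 at 80.0%. All other pairs of the 8 printed promoters matched at 46.8 to 53.6% in the same alignments.
ZNF91: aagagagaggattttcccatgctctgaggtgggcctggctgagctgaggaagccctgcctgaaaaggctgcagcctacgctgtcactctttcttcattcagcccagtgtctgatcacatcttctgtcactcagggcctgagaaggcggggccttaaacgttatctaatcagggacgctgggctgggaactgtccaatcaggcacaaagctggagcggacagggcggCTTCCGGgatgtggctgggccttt
ZNF43: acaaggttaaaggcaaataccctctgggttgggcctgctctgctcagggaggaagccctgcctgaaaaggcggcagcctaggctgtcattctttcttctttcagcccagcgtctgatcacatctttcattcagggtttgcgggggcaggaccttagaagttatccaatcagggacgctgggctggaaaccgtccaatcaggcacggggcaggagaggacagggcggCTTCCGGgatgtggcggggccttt
ZNF208: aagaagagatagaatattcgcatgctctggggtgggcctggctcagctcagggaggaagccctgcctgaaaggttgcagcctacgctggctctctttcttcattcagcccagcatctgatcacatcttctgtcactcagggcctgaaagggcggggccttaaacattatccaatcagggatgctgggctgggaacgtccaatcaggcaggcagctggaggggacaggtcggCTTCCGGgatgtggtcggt

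The lists of the control lines were close to empty. On chromosomes 1-22, X and Y they held 13, 4 and 2 peaks, against 14262, 24981 and 2188 in clones 1, 2 and 3, and on chromosome 19 they held 0, against 880, 1684 and 347. The clones' mean on chromosome 19 was 970 ± 673 (SD, n = 3), and the groups did not overlap (exact two-sided permutation test over 20 assignments, p = 0.1, the smallest this design can give; difference 2.90 on the log10(n + 1) scale). Total reads per library are not in the sources used here, so a list's length and the depth behind it cannot be told apart, and no value below is a measure of openness in the control lines. Of the targeted genes, ELANE and PRTN3 had no gene-end peak in any library and CTSG had one in clone 2 only, which does not check a deletion. Of 12 monocytic and myeloid marker genes, 2 (CD68 and ITGAM) were covered in 2 or more clones and 4 in no clone, the defining genes SPI1, LYZ and MPO among them. The counts for markers of other lineages were 0 of 5 (B cell), 1 of 3 (T cell, CD3E), 0 of 3 (erythroid) and 0 of 3 (epithelial), so peaks at gene ends do not identify the line.

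In each clone the share of zinc finger genes with a gene-end peak was below that of the other genes of their chromosome. The share was 24.8% in clone 1 (61 genes; 95% exact binomial interval 19.5 to 30.7), 31.3% in clone 2 (77 genes; 25.6 to 37.5) and 7.32% in clone 3 (18 genes; 4.39 to 11.3). In the other genes of chromosome 19 it was 40.7%, 43.1% and 21.3%, and in all protein-coding genes 39.1%, 29.6% and 6.55%. The zinc finger genes were therefore 15.9, 11.8 and 14.0 percentage points lower than their chromosome in clones 1, 2 and 3, a mean difference of -13.9 ± 2.05 points (SD, n = 3 clones). With these settings the sign was the same in each clone and the mean was several times the spread between clones. With only peaks of a fold of 5 or more it was about as large as the spread (-3.11 ± 3.03 points, SD). No test was run, since a sign-flip test on 3 clones cannot give a p below 0.25. Against all protein-coding genes the sign was not the same: the differences were -14.3, 1.72 and 0.769 points. Chromosome 19 held 6.17%, 6.74% and 15.9% of the peaks of clones 1, 2 and 3. Its other genes had a higher share than all protein-coding genes in each clone. Intervals cover counting error only, and neighbouring genes can share a peak.

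In the control lines 0 of 246 zinc finger genes had a gene-end peak, where a count of 0 allows a share of up to 1.49% by the same interval. Among all protein-coding genes the shares were 0.00501%, 0% and 0% in control lines 1, 2 and 3, so the controls separate no group of genes.

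**Figure D1:**
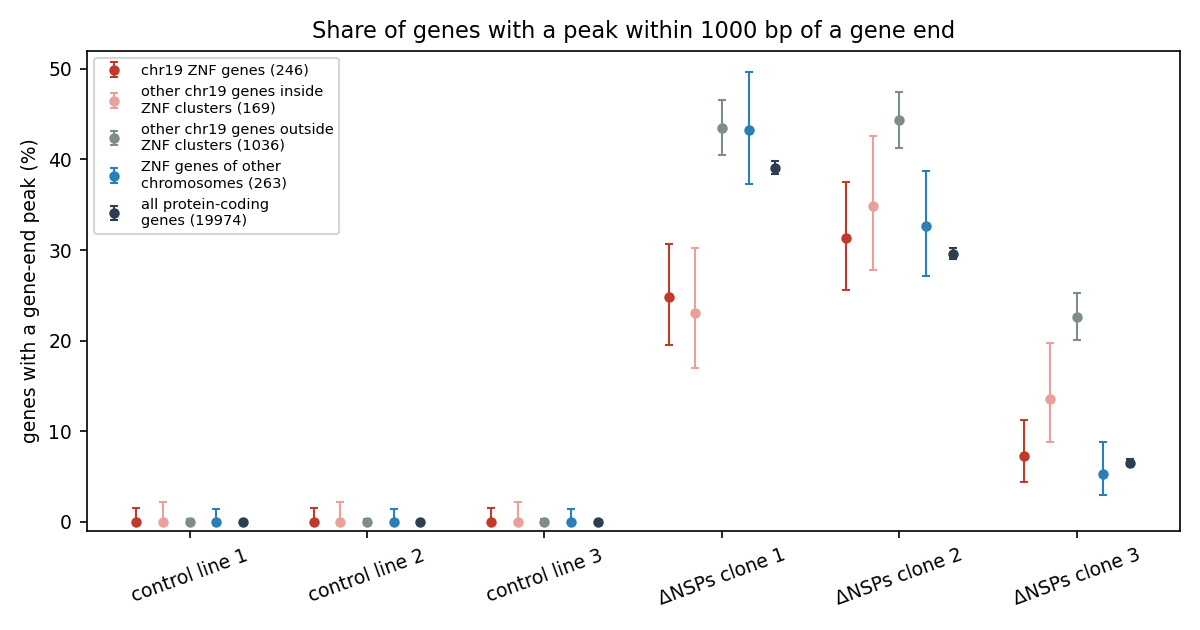
Share of genes with a gene-end peak (vertical axis, percent) in each of the 6 libraries (horizontal axis), for the zinc finger genes and 4 comparison sets; points are shares and bars exact 95% binomial intervals, which cover counting error only. In each clone the zinc finger genes (24.8, 31.3 and 7.32%) lie below the other chromosome 19 genes outside the clusters (43.5, 44.4 and 22.6%), and the control lines are at or near 0 in every set.

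The size of that difference depended on which neighbours were compared. The zinc finger genes were grouped into clusters wherever no gap between the end of a member and the start of the next was over 1000000 bp. Of the 1205 other genes, 169 lie between the ends of such clusters, and they had shares of 23.1%, 34.9% and 13.6%. The zinc finger genes differed from these interleaved neighbours by 1.72, -3.61 and -6.29 points, a mean of -2.73 ± 4.08 points (SD, n = 3), which is within the spread between clones. The neighbours are not spread over the clusters as the members are, and some have related zinc finger names. The cluster from ZNF557 to ZNF846 has 54 of them beside 15 members, and that from ZNF101 to ZNF254 has 2 beside 37. The mean therefore mixes clusters, whose differences have either sign (below). Against the 1036 genes outside the clusters the mean difference was -15.7 ± 2.84 points (SD, n = 3). Peaks of any position were also sparser inside the cluster spans, at 8.26, 19.2 and 3.08 per Mb in clones 1, 2 and 3 against 18.2, 33.2 and 7.24 per Mb on the rest of the chromosome. The spans cover 31.6% of the chromosome and held 17.4%, 21.1% and 16.4% of its peaks.

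A gene was called where peaks lay at its ends in 2 or more clones and in no control line. Of the 246 zinc finger genes 43 were called, or 17.5% (12.9 to 22.8), beside 23.3% of all protein-coding genes and 34.7% of the other genes of chromosome 19. In all 3 clones a peak was found for 13, or 5.28% (2.84 to 8.87), beside 5.40% and 18.3%. Of the 169 other genes inside the cluster spans 22.5% (16.4 to 29.5) were called. The remaining zinc finger genes divide into 57 with a peak in a single clone and 146 (59.3%) with none. The count of called genes rests on the clones with long lists: it was 16 without clone 1, 14 without clone 2 and 39 without clone 3. Among the called, 26 had peaks in clones 1 and 2 only, 3 in clones 2 and 3 only and 1 (ZNF8) in clones 1 and 3 only.

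Clone 3, with the shortest list, mostly had peaks at genes that had one elsewhere. Of its 18 zinc finger genes 14 (77.8%) also had a peak in clone 1 and 16 (88.9%) in clone 2, and ZNF583 alone had one in clone 3 only. The other chromosome 19 genes with a peak in clone 3 also had one in clone 1 in 92.2% and in clone 2 in 91.4%, which is no lower than in the zinc finger genes. Between the longer lists the overlap was smaller: 39 genes were shared, which is 63.9% of the 61 of clone 1 and 50.6% of the 77 of clone 2. For the other genes of chromosome 19 those shares were 79.2% and 74.8%. Peaks in 1 clone only were found for 21 zinc finger genes in clone 1 and 35 in clone 2.

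Along the chromosome the members formed 16 clusters, 7 of them with 10 or more members and 225 members together. The widest gap inside a cluster was 988653 bp and the narrowest between clusters 1217831 bp. The cluster at the end of the long arm, from ZNF628 to ZNF446 (chr19:55476617-58489533), had 59 members, of which 18 were called (30.5%, 19.2 to 43.9). Its shares in clones 1, 2 and 3 were 35.6%, 47.5% and 11.9%. Among its 45 other genes 7 were called (15.6%, 6.49 to 29.5), so here the zinc finger genes had the higher share, although the intervals overlap. Without clone 1 the cluster had 5 called members and without clone 2 it had 6. In both cases the highest share among the large clusters passed to that from ZNF557 to ZNF846, with 3 and 2 of its 15. Outside the end cluster 25 of 187 members were called (13.4%).

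The cluster beside the centromere, from ZNF101 to ZNF254 (chr19:19668153-24129968), stood at the other end of the range, with 2 of 37 members called (5.41%, 0.661 to 18.2). Its shares were 8.11%, 21.6% and 2.70% in clones 1, 2 and 3, and peaks of any position were sparse in it, at 1.12, 6.95 and 0.896 per Mb. This interval and that of the end cluster do not overlap, which is a statement about counting error and not about variation between clones. The 2 clusters were also picked as the extremes of the 7 large ones by these same shares, which widens their separation. At a −log10 q of 5 or more the end cluster had 15.3% called and that from ZNF565 to ZNF573 15.4%. The cluster beside the centromere then had 0 called, as did that from ZNF653 to ZNF791. The called genes were ZNF506 and ZNF254, and its 2 other genes were not called. Leaving out a clone left 1, 0 and 1 called members here (without clone 1, 2 and 3). ZNF91 and ZNF93, which repress SVA and LINE-1 retrotransposons, belong to this cluster. ZNF91 had no peak, and ZNF93 had one in clone 1 only, with a fold enrichment of 2.40. ZNF675, an inhibitor of TRAF6 signalling, and ZNF253 had one in clone 2 only, with fold enrichments of 3.74 and 6.56.

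The cluster from ZNF175 to ZNF331 (chr19:51571283-53580269) also had a low called share. Of its 39 members 11 (28.2%) had a peak in clone 1, 6 (15.4%) in clone 2 and 0 in clone 3, and 3 were called (7.69%, 1.62 to 20.9), ZNF616, ZNF766 and ZNF83. Of the 16 other genes in its span 2 were called (12.5%, 1.55 to 38.3) and 0 had a peak in clone 3. The order of clones 1 and 2 was the reverse of that over all members, which was not tested. Without clone 1 or clone 2 it had 0 called members. ZNF331 and ZNF350, a repressor that binds BRCA1, had no peak. ZNF808, which is needed for pancreas development, had one in clone 1 only (fold enrichment 2.89).

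The other large clusters lay between these. They had 3 of 15 members called from ZNF557 to ZNF846 (20%), 5 of 25 from ZNF653 to ZNF791 (20%), 5 of 26 from ZNF565 to ZNF573 (19.2%) and 3 of 24 from ZNF575 to ZNF296 (12.5%). The other genes of the same spans had 16 of 54 called (29.6%), 1 of 4, 0 of 4 and 8 of 27 (29.6%), so in the first and last of these clusters the zinc finger genes had the lower share. Without clone 1 the last had 0 called, and without clone 2 also 0. The 21 members in the 9 small clusters included 4 called genes, ZNF555, ZNF333, ZNF780B and ZNF526. At least 1 member was called in 11 of the 16 clusters.

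**Figure D2:**
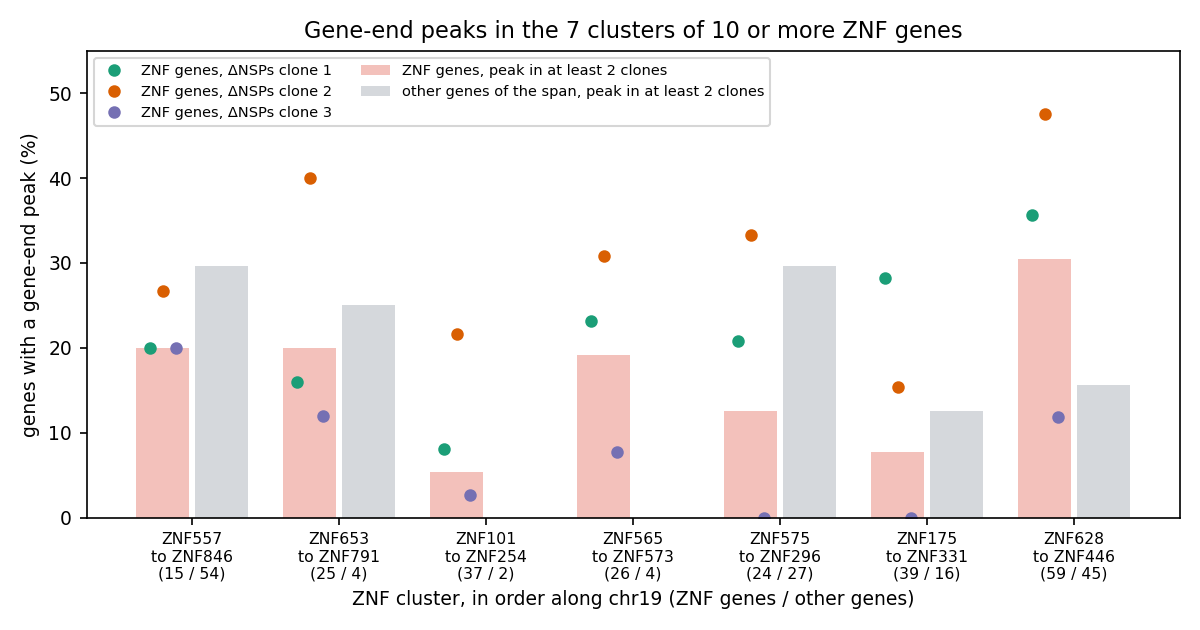
Share of genes with a gene-end peak (vertical axis, percent) in the 7 clusters of 10 or more zinc finger genes, in order along chromosome 19; red bars show zinc finger genes called in at least 2 clones, grey bars the other genes of the same span, and points the zinc finger genes of each clone. The called share runs from 5.41% in the cluster from ZNF101 to ZNF254 to 30.5% in the cluster from ZNF628 to ZNF446, and the grey bars of 2 clusters are at 0.

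The gene-end peaks of the zinc finger genes lay mostly at the 5′ end of the gene. Peaks inside gene bodies are outside these windows by construction and are counted further below. Where the promoter table gives the strand, the highest-ranked peak lay at the 5′ end only in 56 of 58 genes in clone 1 (96.6%), 67 of 71 in clone 2 (94.4%) and 16 of 17 in clone 3 (94.1%). In the other genes of chromosome 19 these shares were 86.3%, 84.8% and 87.2%. Peak summits of the 5′ peaks had medians of -41.5, -63.0 and -101 bp from the transcript start, negative being upstream. In clones 1, 2 and 3, 48, 51 and 15 summits lay within 300 bp of it.

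**Figure D3:**
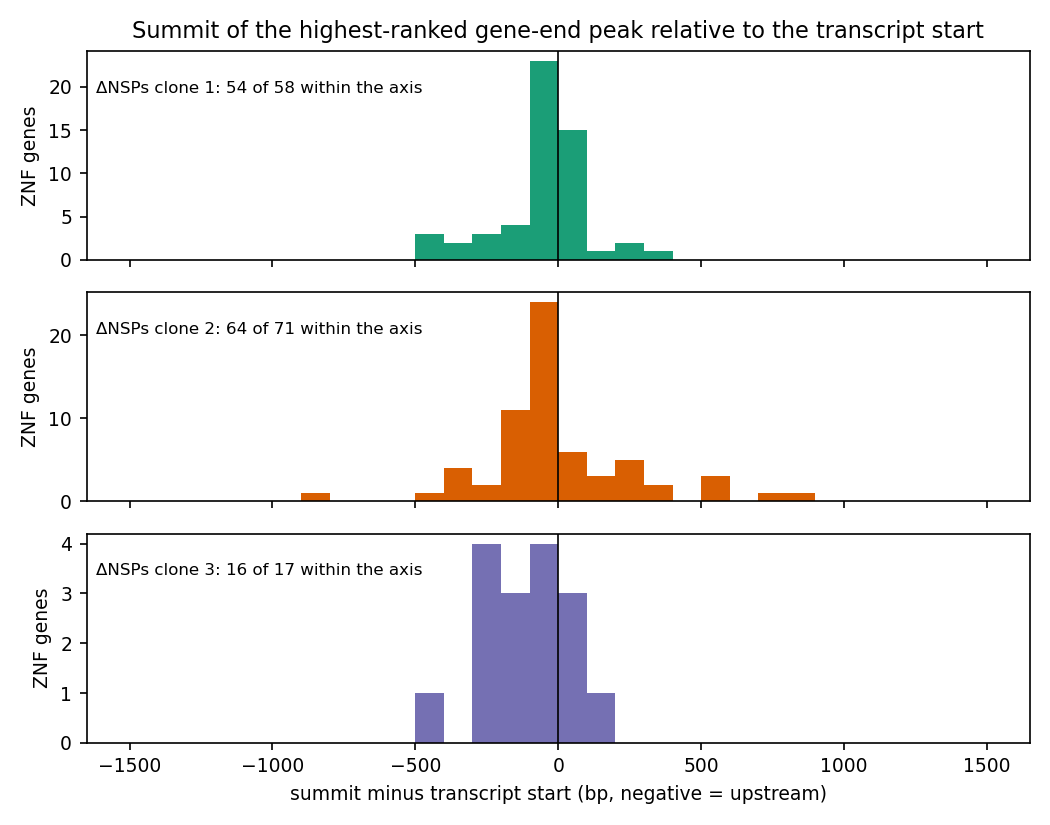
Number of zinc finger genes (vertical axis) by the distance from the transcript start to the summit of the highest-ranked gene-end peak (horizontal axis, bp, negative upstream, bins of 100 bp), 1 panel for each clone. Most summits stand just upstream of the start, with medians of -41.5, -63.0 and -101 bp over the 5′ peaks.

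The 43 called genes stood on 42 groups of separate peaks, since only ZNF324 and ZNF446 shared theirs. In 32 of the 43 the peaks of the clones overlapped each other by at least 1 bp in every pair, in 4 in part of the pairs and in 7 in none. Called genes sharing a peak with any other gene numbered 7. With each member taken at its nearest peak, the last members inside the 1000 bp window were ZNF577 (868 bp, clone 1), ZNF296 (808 bp, clone 2) and ZNF324 (575 bp, clone 3). The first members outside it were ZNF544 (1138 bp), ZNF587B (1071 bp) and ZNF544 again (1351 bp).

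Peaks of the zinc finger genes had median fold enrichments close to those of the other chromosome 19 genes in clones 1 and 3 and lower in clone 2, and smaller median −log10 q in each clone. The authors give each peak a fold enrichment, its pile-up of reads over the local background, and a q-value, the p-value adjusted by the peak caller. The median fold enrichment was 3.47 against 3.43 in clone 1, 3.70 against 4.09 in clone 2 and 2.96 against 3.00 in clone 3. Median −log10 q was 5.46 against 6.73, 5.75 against 8.55 and 3.82 against 4.76. The pile-ups behind these values, solved from fold and p, had medians of 33.0, 26.0 and 28.5 reads in zinc finger genes and 36.5, 34.0 and 39.0 in the others. Within a clone the members ranged over 2.23 to 5.82, 2.53 to 8.29 and 2.12 to 4.57 in fold enrichment.

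Of the 13 genes with a peak in all 3 clones, ZNF414 had the highest fold enrichment in clone 1, at 5.82, with 3.99 and 4.45 in clones 2 and 3. ZNF333, the only member of its cluster, had 4.29, 5.69 and 3.44 in clones 1, 2 and 3. ZNF699 had 3.49, 5.19 and 4.57, and its clone 3 value was the highest of any zinc finger gene there. ZNF414 and ZNF333 were above the median of the members in each clone, whereas ZNF699 was at it in clone 1, with a −log10 q of 2.28 there against a median of 5.46.

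ZNF146, which encodes a protein made almost only of zinc fingers and without a KRAB domain, had 3.27, 4.82 and 2.18. ZNF564 had 2.99, 4.11 and 3.31, and ZNF628 had 2.28, 6.38 and 2.55. In these the fold of clone 2 was the highest, as was its median over all members (3.70, against 3.47 and 2.96 in clones 1 and 3). With depth unknown, folds of different clones may not be on a shared scale. ZNF324 and ZNF446 had 4.27, 3.70 and 2.55 from the same peaks, whose summits lie between the 3′ end of ZNF324 and the start of ZNF446, and ZNF324 had a further peak at its own 5′ end in clones 1 and 2 (3.18 and 4.28). ZNF837 had 4.50, 2.82 and 2.61, with the smallest q of any member in clone 1 (−log10 q 20.6). The other members in all 3 clones were ZNF555 (3.34, 2.86 and 2.93), ZNF383 (3.33, 2.91 and 3.15), ZNF865 (3.59, 3.79 and 2.54) and ZNF700 (3.52, 4.13 and 2.62).

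The highest fold enrichments of all were in fewer clones. ZNF780A reached 8.29 in clone 2 and had no peak in the others. ZNF44 had 6.95 in clone 2 and 3.76 in clone 3. Such high folds can stand on a low local background, which was solved as 1.77 reads at ZNF780A and 1.73 at ZNF44 in clone 2. The pile-ups of these peaks were 22 and 18 reads, below the median of 26.0 over the members of clone 2. Their −log10 q values were 13.1 and 9.24, above the median of 5.75. In clone 1 ZNF530 had 5.32 and no peak elsewhere, and ZNF780B had 5.01, with 3.37 in clone 2. ZNF583 had 4.04 in clone 3.

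**Figure D4:**
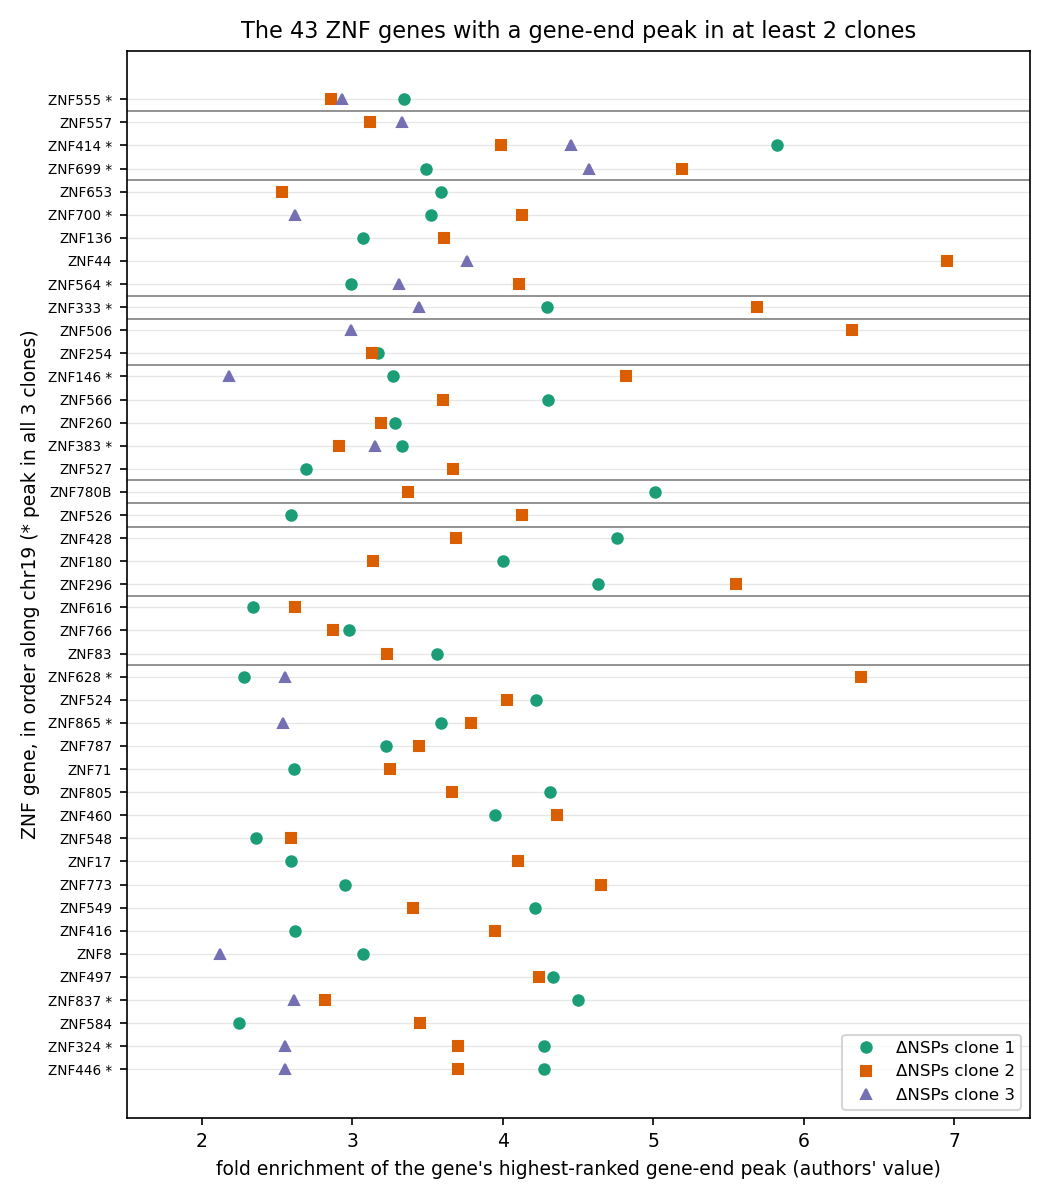
Fold enrichment over local background (horizontal axis, the authors' value) of the highest-ranked gene-end peak in each clone for the 43 called zinc finger genes, in order along chromosome 19 from top to bottom; grey lines separate clusters and a star marks a peak in all 3 clones. Values run from 2.12 (ZNF8, clone 3) to 6.95 (ZNF44, clone 2), and most clone 3 values lie on the left. With depth unknown, folds of different clones may not be on a shared scale.

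Among the members named for a known role, ZNF274, which recruits SETDB1 to the 3′ ends of zinc finger genes, had a peak in clone 2 only (fold enrichment 4.05). ZNF224, a KRAB repressor first described at the aldolase A gene, had one in clone 2 only (3.45), as did ZNF382 (3.72) and ZNF576 (4.55). ZNF473, part of the machinery that cuts histone messenger RNA, had one in clone 1 only (2.77), as did ZNF507 (3.82). ZNF296 (4.63 and 5.55), ZNF428 (4.76 and 3.69), ZNF180 (4.0 and 3.14) and ZNF653 (3.59 and 2.53) had peaks in clones 1 and 2. ZNF43, ZNF208, ZNF358, ZNF114, ZNF302, ZNF536 and ZNF541 had none, and the last pair are known for roles in neural differentiation and in meiosis.

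Near TRIM28, at the end of the chromosome, lie the last zinc finger genes. Within 300000 bp of it ZNF837, ZNF324 and ZNF446 had peaks in all 3 clones. ZNF497 (4.33 and 4.24) and ZNF584 (2.25 and 3.45) had them in clones 1 and 2, and ZNF8 (3.07 and 2.12) in clones 1 and 3. ZNF132, ZNF324B and ZNF544 had none at their gene ends. TRIM28 itself had a peak in all 3 clones, with fold enrichments of 3.63, 3.27 and 2.73.

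The corepressor and heterochromatin genes that work with KRAB zinc finger proteins were listed as 27 genes. Of these 11 were called (40.7%), beside 23.3% of all protein-coding genes, 9 had a peak in 1 clone and 7 in none. The list was chosen with earlier results of these data known, and no interval was computed for it. A peak in all 3 clones was present at 5 of the 27, beside 5.40% of all protein-coding genes. In all 3 clones a peak was found at TRIM28, at the HP1 genes CBX3 (3.50, 4.18 and 2.48) and CBX5 (2.51, 5.39 and 2.21), at the maintenance DNA methyltransferase DNMT1 (3.39, 3.59 and 3.65) and at the histone chaperone subunit CHAF1A (2.26, 5.36 and 2.29). SETDB1 had peaks in clones 1 and 2 (3.17 and 4.86). The 7 without were HDAC1, CHD3, CHD4, ATF7IP, UHRF1, SMARCAD1 and ATRX, and the control lines had no peak at any of the 27. TRIM28, DNMT1, CHAF1A and UHRF1 lie on chromosome 19. Of the genes there other than the members, 34.7% were called and 18.3% had a peak in all 3 clones.

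Genes with like names were placed beside the members. Zinc finger genes of the same naming on other chromosomes, 263 in all, had shares of 43.3%, 32.7% and 5.32% in clones 1, 2 and 3, with 22.4% called. The chromosome 19 genes differed from them by -18.5, -1.40 and 1.99 points, so the difference stood in clone 1 and was of either sign in the others. Of 21 further genes of chromosome 19 with related names (ZFP, ZSCAN, ZIM, ZBTB and compound ZNF symbols) 5 were called (23.8%, 8.22 to 47.2). These were ZBTB7A and ZBTB45 in all 3 clones and ZBTB32, ZFP36 and ZSCAN22 in clones 1 and 2. The set goes by symbol only, so its proteins need not be related to those of the members. It also holds ZNF816-ZNF321P and ZNF470-DT, which share a peak with the members ZNF816 and ZNF470.

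Promoters in the RefSeq table, 300 bases from 250 before to 50 after the transcript start, matched 216 of the 246 members. For 173 of them the start is the end of the gene, and for 31 it lies over 1000 bp inside. Groups here and in the counts of letters below go by gene-end peaks, so a peak at a start inside the gene is not counted. ZNF558, ZNF565 and ZNF444, with a peak at the start in all 3 clones, thus stand among members with none. The called ZNF254 had no peak at its listed start. Called members had a median GC content of 63.7% (41 promoters), members with a peak in 1 clone 61.3% (51) and members with none 58.3% (124). Their CpG observed over expected, the number of CG pairs relative to that given by the base content, had medians of 0.802, 0.784 and 0.739. The other chromosome 19 genes had medians of 64.0% and 0.733, and their own called genes 65.7% and 0.874. The ranges overlap widely, from 54.0 to 75% GC in called members and from 39.0 to 78.3% in those without a peak.

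Within classes of GC content the called share of zinc finger genes stayed below that of the other chromosome 19 genes. It was 12.5% against 34.3% at 50 to 60% GC, 24.5% against 42.4% at 60 to 70% and 35.7% against 41.1% at 70% or more, the last over 14 zinc finger promoters with an interval of 12.8 to 64.9%. Below 50% GC there were 4 zinc finger promoters and 0 were called, against 8.57% of the others. The interleaved neighbours were not compared within these classes, and the part of GC content in the lower share was not tested.

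**Figure D5:**
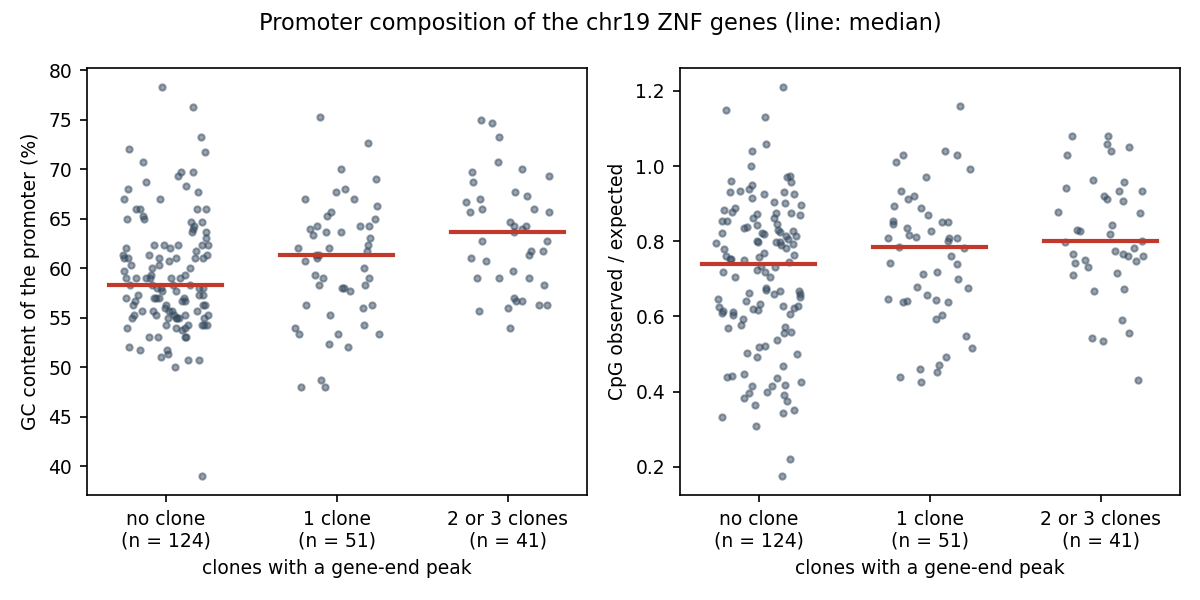
GC content (left, percent) and CpG observed over expected (right) of the 300-base promoters of zinc finger genes, by the number of clones with a gene-end peak; each point is a gene and the red line the median. Median GC content is 58.3% with no clone, 61.3% with 1 clone and 63.7% with 2 or 3 clones, and the points overlap widely.

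The ETS letters CCGGAAG, searched on both strands, were common in the family whether or not a gene had a peak. They were in 98 of 216 member promoters (45.4%), against 13.0% of the other chromosome 19 genes and 10.7% of all 27305 promoters in the table. Among called members the share was 41.5% and among those without a peak 47.6%. Called genes made up 17.3% of the members with the letters and 20.3% of those without. Other chromosome 19 genes differed here: 19.5% of their called genes held the letters and 5.12% of those without a peak.

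In the cluster from ZNF101 to ZNF254 the letters were in 21 of 29 promoters (72.4%), in 19 of them within the 25 bases before the start, as in the printed ZNF91, ZNF43 and ZNF208. These promoters had a median CpG observed over expected of 0.438 and a median GC content of 56.0%. In 26 of the 29 (89.7%) at least 1 stretch of 30 bases also occurred in another promoter of the table. Reads from such stretches can fit several places, and how the authors' alignment treated them is not given in the sources used here; its part in the low count of peaks was not tested. Over all members 44.9% held such a stretch, against 19.2% of the other chromosome 19 genes, with 34.1% among called members and 46.8% among those without a peak.

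In the end cluster, which had the largest number of called genes, the letters were nearly as frequent, in 33 of 54 promoters (61.1%), but CpG observed over expected had a median of 0.830. Of the 33 with the letters 10 were called, and of the 21 without 7. The printed ZNF549, ZNF773 and ZNF460 promoters are among those with the letters. Their CpG observed over expected was 1.06, 1.08 and 0.534, so that of ZNF460 was below the median of its cluster. ZNF549 had fold enrichments of 4.21 and 3.40 in clones 1 and 2, ZNF773 of 2.95 and 4.65 and ZNF460 of 3.95 and 4.36. A peak of each of these clones lay over the printed bases of all 3. The cluster from ZNF175 to ZNF331 had the letters in 20 of 32 promoters (62.5%) and a median CpG observed over expected of 0.849, with few called genes, so neither measure ordered the clusters by their peaks.

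The NRF1 letters, searched on both strands, were more frequent in members with a peak over all clusters. They were in 9 of 41 called promoters (22%, 10.6 to 37.6), in 9 of 51 with a peak in 1 clone (17.6%) and in 9 of 124 with none (7.26%, 3.37 to 13.3). The share was 10.3% in the other chromosome 19 genes and 6.28% in all promoters of the table. The same order held in the other chromosome 19 genes, at 16.4% of called genes and 4.19% of those without a peak. In the end cluster the order was the reverse: 2 of 9 members with the letters were called (22.2%), against 15 of 45 without (33.3%). ZNF428 (fold enrichments 4.76 and 3.69) and ZNF527 (2.69 and 3.67), printed above, are called members with these letters. The letters are rich in G and C, as are the called promoters, and the part of GC content in this order was not tested.

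The transcript start of some members lies well inside the gene, so their promoters fall outside the gene-end windows. With the window set on the start instead, 47 of 216 members were called (21.8%, beside 32.8% of the other chromosome 19 genes with a listed start), 15 of them in all 3 clones. This added 8 genes. ZNF558 (2.32, 3.63 and 2.36 in clones 1, 2 and 3) and ZNF444 (3.45, 4.98 and 3.22) had a peak at the start in all 3 clones. So did ZNF565 (3.27, 4.82 and 2.18), whose start lies beside that of ZNF146 and has the same values. ZNF324B, at 4.87 and 3.55, ZNF749, ZNF550, ZNF575 and ZNF846 had one in clones 1 and 2. It removed ZNF254, whose listed start lies 53738 bp inside the gene, and ZNF787. The called genes ZNF506 and ZNF524 have no entry in the promoter table and could not be placed in this count.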

How the data were processed

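ATAC-seq peak lists of 6 U937 libraries (3 control lines, 3 ΔNSPs clones), grouped by sample title, were analysed. Per the submitters' processing notes the tools were FastQC, Bowtie2, Picard and MACS2, with GRCh38. What versions and settings they had, and how the transposase offset was handled, is not given in the sources used here. The lists were called library by library. For each summit the authors deposited a score, a fold enrichment as a ratio over local background, −log10 values of p and q, and a summit offset. The score was not used. The lowest −log10 q in the authors' lists was 2.30, 2.29 and 2.73 in control lines 1, 2 and 3 on chromosomes 1-22, X and Y and 2.00 in each clone.

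Peaks sharing an interval were counted once, with the highest summit. Genes came from RefSeq (GRCh38.p14) as starts and ends. Gene-end windows were 1000 bp either side of both ends. Strand and promoters came from the RefSeq promoter table. Pile-ups were solved as whole reads from the authors' fold, taken as (pile-up + 1)/(background + 1), and p, taken as a Poisson tail. On simulated data 100% of 94 planted gene-end peaks among 19974 genes and 100% of 343 pile-ups were recovered. Shares have exact Clopper-Pearson 95% intervals; the total read depth of each library is unknown. Peaks on chromosome 19 were compared by an exact permutation test over libraries. Its p is the share of the 20 assignments with a difference at least as large. Groups that do not overlap fix it at 0.1 whatever the spread between libraries. The planned description of the proteins was not run, as no protein sequences were used here. Python 3.11.15, numpy 2.4.6, pandas 2.3.3, scipy 1.17.1 and Biopython 1.88 were used. Printed promoters were aligned globally (match 1, mismatch -1, gap opening -3, gap extension -1).

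The members and lists were chosen with earlier results of these data known. Genes were named by rule: members with a peak in all 3 clones, the best-ranked called member (or, with none, the first) of each cluster, the 3 highest folds in each clone, members within 300000 bp of TRIM28, and a fixed list of members and partners. Further members named because they were called, printed, at a window edge or moved by the choice of window were chosen after their values were seen. Alternatives varied the window, the thresholds, the number of clones, the cluster gap and the libraries left out.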

Additional observations from a re-analysis of the deposited data

How the results depend on the processing

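Of 79 alternatives of the results that answer a comparison, 47 were labelled the same, 32 moved and none reversed. The margin was 1.5 times for a count, which cannot reverse, and 1 SD for a value. For peaks on chromosome 19 only the sign was asked, which could not reverse with 0 in each control list. Leaving out a control line could not change the called count, and the equal-length list of clone 3 is its own list. For promoter GC content 1 SD (5.92 points) was more than the difference itself (5.33). The 43 called genes became 20 at a −log10 q of 5 or more, 0 at a fold of 5 or more (15 of the other chromosome 19 genes), 8 with clone lists of equal length (each clone's 2188 best peaks), 13 in all 3 clones and 100 in any clone, and ranged from 14 to 39 with a clone left out. The mean difference from the other chromosome 19 genes was -13.9 ± 2.05 points (± is the SD over clones). It became -11.3 ± 2.15 and -18.6 ± 2.46 with windows of 500 and 2500 bp, and -17.2 ± 1.20 over whole genes. At a −log10 q of 5 it was -11.7 ± 3.22, with equal lists -10.0 ± 3.74 and at transcript starts -8.68 ± 3.28. At a fold of 5 it was -3.11 ± 3.03, about as large as its spread. With a clone left out it was -14.9 to -12.9. Members with a peak in clones 1, 2 and 3 became 35, 44 and 4 at a −log10 q of 5, 3, 12 and 0 at a fold of 5, and 12 and 15 in clones 1 and 2 with equal lists, whose median folds were 4.29 and 4.65. Without the cluster from ZNF628 to ZNF446, chosen after seeing the data, they were 40, 49 and 11, with 25 called. Clusters with a called member, 11 of 16, became 5 of 16 with equal lists and 6 to 11 of 16 with a clone left out. Gaps of 2000000 bp merged the members into 8 clusters, 7 of them with a called member. Gaps of 500000 bp gave 20 clusters, 14 of them with one. With the replicate number as a block the difference in peaks on chromosome 19 was 2.90 (log10 scale, exact sign-flip permutation p = 0.25, the smallest 3 pairs can give); numbers of control lines and clones only share a label. Thresholds and equal lists keep fewer peaks by construction; the cause of other shifts was not tested.

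The control lists hold too few peaks to compare zinc finger genes between groups, and with unknown depth a gene without a peak is not shown to be closed. Bulk peaks do not tell more open cells from more open DNA per cell.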

Other observations

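Peaks inside the bodies of the zinc finger genes, over 1000 bp from both ends, were found in 19 (7.72%), 32 (13.0%) and 5 (2.03%) members in clones 1, 2 and 3, against 14.7%, 29.4% and 5.48% of the other chromosome 19 genes. The members are the longer genes, with a median length of 23.2 kb against 12.8 kb. In at least 2 clones 17 members had such a peak, and 11 of these had no gene-end peak in any clone. ZNF558, ZNF69, ZNF565 and ZNF444 had one in all 3 clones. In ZNF558, ZNF565 and ZNF444 a peak lay at a transcript start inside the gene.

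Zinc finger genes also had fewer close neighbours. The end of another protein-coding gene lay within 1000 bp of an end of 17.5% of the members, against 42.2% of the other chromosome 19 genes. Among called members the share was 25.6%, and among members with no peak 14.4%. Called members were shorter, with a median of 19 kb against 24.9 kb. The part of either measure in the calls was not tested.

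The strand was known for 41 of the 43 called genes, and 40 of these had a 5′ peak in at least 2 clones. In the cluster from ZNF565 to ZNF573 the NRF1 letters were in 7 of 25 promoters (28%), of which 3 were called, and 72.0% of its promoters held a stretch of 30 bases found in another promoter. In the cluster from ZNF653 to ZNF791 the ETS letters were in 2 of 24 promoters (8.33%).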
